A study of Danio rerio with 2 samples.

Results

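Introns that lie directly next to a strongly gained intron in caliban mutant zebrafish larvae were described here, 425 of the 54539 introns listed under a single Refseq gene ID, in a table of 55660 introns. A gained intron was one with at least 20 reads in the mutant library and a level at least 4-fold above that of wildtype. Its neighbours are the rows of the same Refseq ID directly before and after it along the chromosome that do not meet that rule themselves. The members were thus chosen by the reads and RPuKM ratio of the introns beside them. Their own reads and ratio entered only to remove rows that meet the gain rule. They were divided by strand into upstream neighbours, on the 5′ side of the gained intron in the transcript, and downstream neighbours on its 3′ side. There were 308 gained introns in 272 genes, with 219 upstream and 207 downstream neighbours in 259 genes. An intron of the spermine synthase gene sms lay between a pair of gained introns and counted on both sides. For 28 gained introns no neighbour was found on either side, among them 12 that were the only listed intron of their gene, and 28 adjacent pairs were formed by gained introns themselves.

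The mutant group was 1 library of whole larvae homozygous for the caliban mutation, labelled clbns841, and the control group was 1 library of homozygous wildtype larvae. Both groups were aged 108 hours after fertilization. Each library was made from RNA of about 60 pooled larvae that had been genotyped singly, and both pools had been kept in phenylthiourea, which blocks pigment. No value has a replicate error, and no difference between the genotypes can be tested. The libraries held 25718058 reads (clbn) and 28309779 reads (wildtype), and no intron is listed with 0 reads in either, so introns seen in a single library are not analysed here. As background knowledge has it, clbn is a mutation of rnpc3, the gene of the 65K protein of U11/U12. Its gene value was 2.50 in the mutant library and 5.70 in wildtype. Genes that mark liver (fabp10a, 342 in clbn and 328 in wildtype), fast muscle (mylpfa, 4479 and 4615 in the same order), neurons (snap25a, 121 and 142), pancreas (prss1, 854 and 2618) and lens (crybb1, 331 and 802) all had a deposited gene value in both libraries. Pancreas and lens markers were lower in clbn, and so was that of intestine (fabp2, 269 in clbn and 365 in wildtype). Markers of red blood cells (hbae3, 835.5 in clbn and 610 in wildtype) and cartilage (col2a1a, 272 and 213) were higher. The part of these organs in the intron ratios below was not tested. In whole larvae, fewer cells of a type and less RNA per cell cannot be told apart.

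Most introns are removed by the major spliceosome and a small class, the U12-type introns, by a separate minor spliceosome, whose U11/U12 particle recognises the ends of such an intron. A gene with a U12-type intron usually holds a single one among many introns of the major class, so its neighbours are as a rule removed by the other machinery. Splice sites are often recognised in pairs across an exon, and a retained intron shares an exon with each neighbour. The deposited table has no column for intron class. No sequence of the introns or their splice sites is printed, since no genome of the files' build was used here.

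The neighbours leaned to the higher side in the mutant library. That their ratios lie below those of the gained introns follows from the rule, which removes neighbours that are themselves gained. Levels were compared as RPuKM, the authors' reads per kilobase of unique intron sequence scaled to the reads of the library, and a fold is RPuKM in clbn over RPuKM in wildtype. Over the neighbours as a whole, reads ranged from 1 to 335 with a median of 8 in the mutant library and from 1 to 297 with a median of 7 in wildtype. At least 20 reads over both libraries were held by 161 neighbours (37.9%), in 129 genes, and ratios were read for these unless stated otherwise. They held 5873 reads in clbn and 5381 in wildtype. The 308 gained introns, chosen for this difference, held 21927 and 2781.

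Of these 161 neighbours, 28 were at least 2-fold higher in the mutant library (17.4%), each in a different gene, and 8 were at least 2-fold lower (4.97%). Among all 20009 introns with as many reads that did not meet the gain rule, 8.11% passed 2-fold on the higher side and 7.73% on the lower side. The median log2 ratio of the neighbours was 0.27, with quartiles of -0.22 and 0.72, and 104 of 161 were above 1-fold (64.6%). Over all such introns the median was 0.04, with quartiles of -0.39 and 0.45, and 53.3% were above 1-fold. Of 8268 tested neighbours of other introns with at least 20 mutant reads, 6.63% were higher and 6.08% lower by as much. The share of higher neighbours of gained introns was above that of both sets. Their share of lower ones was below both, and closer to the second. No test of these differences between intron sets was made, since members of a set are not replicates. Of the 28 higher neighbours, 21 had under 20 wildtype reads and so reached the minimum only with the help of their clbn reads. With under 20 wildtype reads, 28.0% of 75 neighbours were higher, beside 16.4% of all introns that did not meet the rule.

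The ratios of the 264 neighbours with fewer reads are less precise. In that group 86 were higher by 2-fold or more and 47 lower. The matching shares of all introns under the minimum were not computed, so these counts are not read alone. With no minimum on reads, 114 of 425 neighbours were at least 2-fold higher (26.8%) and 55 lower by as much (12.9%), beside 19.7% and 14.9% of all introns that did not meet the rule. At such counts a 2-fold ratio can be a few reads apart, and the background share grows with that of the neighbours.

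**Figure D1:**
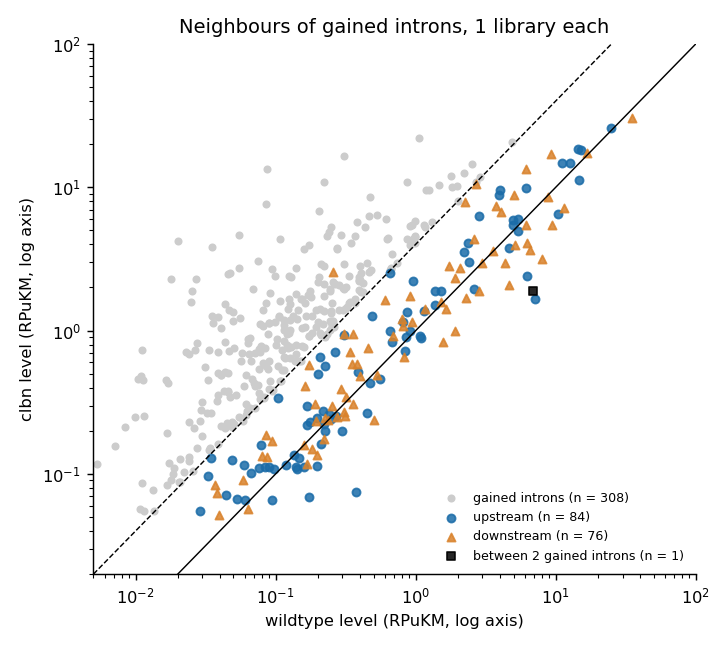
Intron levels in RPuKM in the clbn library (vertical log axis) and the wildtype library (horizontal log axis) for 308 gained introns (grey) and for their neighbours with at least 20 reads over both libraries, 84 upstream, 76 downstream and 1 between a pair of gained introns. The solid line marks equal levels and the dashed line the 4-fold threshold; neighbours lie along the solid line, and 1 of them, the downstream intron of araf, lies above the dashed line with 18 clbn reads.

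Introns of the same gene share its expression, so the neighbours were set beside the other listed introns of their genes. Of 617 such introns that were neither gained nor neighbours, 60 were at least 2-fold higher (9.72%) and 48 lower by as much (7.78%), with a median log2 ratio of 0.14. The median of the neighbours lay 0.13 above it, a difference that was not tested. Of these other introns 58.7% were above 1-fold, beside 64.6% of the neighbours. Relative to the deposited gene value, which turns a level into a retention coefficient, 24 of 161 neighbours were at least 2-fold higher (14.9%, background 7.24%) and 6 lower by as much (3.73%, background 7.18%). Here the median log2 ratio was 0.12 for neighbours, 0.02 for the other introns of the same genes and 0.02 for all introns that did not meet the rule. Gene values themselves had a median log2 ratio of 0.08 over 271 genes with a gained intron and 0.05 over 10223 genes in all.

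As levels, the tested neighbours had a median retention coefficient of 0.0419 in clbn and 0.0353 in wildtype. The other introns of the same genes had 0.0285 and 0.0311. Gained introns, whose coefficients are a consequence of the rule, had 0.111 in clbn and 0.0121 in wildtype. Over 162 pairs of a neighbour and its gained intron, the neighbour had the higher RPuKM in 63 pairs (38.9%) in the mutant library and in 127 (78.4%) in wildtype. The rule picks gained introns with a high level in clbn relative to wildtype, so it shapes the order in both libraries. These counts are a description.

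Upstream and downstream neighbours had similar median ratios. Of 85 upstream neighbours, 16 were at least 2-fold higher (18.8%) and 5 lower by as much (5.88%), with a median log2 ratio of 0.27 and quartiles of -0.20 and 0.69. Of 77 downstream neighbours, 12 were at least 2-fold higher (15.6%) and 4 lower by as much (5.19%), with a median of 0.26 and quartiles of -0.28 and 0.74. Among all introns that did not meet the rule, 8.11% were at least 2-fold higher and 7.73% lower by as much. The difference of the medians, upstream minus downstream, was 0.0077 on the log2 scale and was not tested. Relative to gene values the medians were 0.14 upstream and 0.07 downstream.

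**Figure D2:**
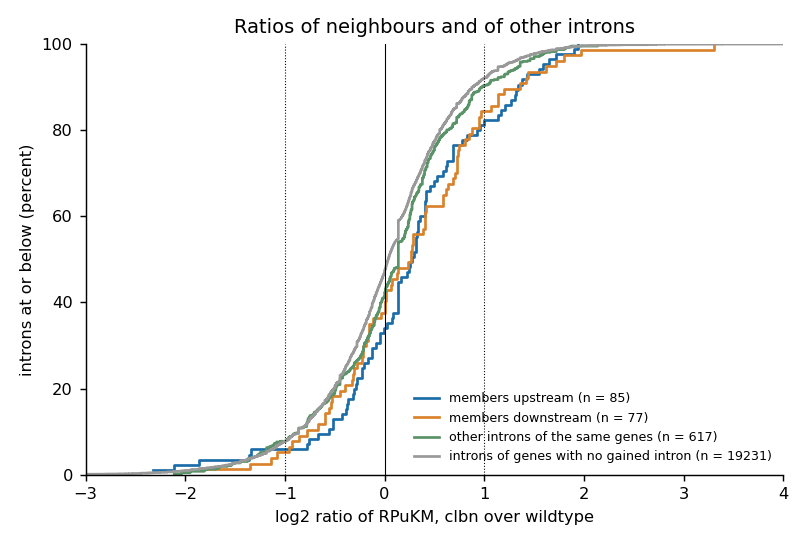
Cumulative percent of introns (vertical axis) at or below each log2 ratio of RPuKM, clbn over wildtype (horizontal axis), for 85 upstream and 77 downstream neighbours, 617 other introns of the same genes and 19231 introns of genes with no gained intron, all with at least 20 reads over both libraries. The curves of both kinds of neighbour lie to the right of the others between the dotted lines at 2-fold lower and 2-fold higher, with medians of 0.27 and 0.26 against 0.14 and 0.04.

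For 31 gained introns both neighbours had at least 20 reads. The upstream ratio was the higher in 15 and the downstream ratio in 16, with a median difference of -0.07 on the log2 scale and quartiles of -0.35 and 0.58. Both neighbours were above 1-fold in 18 cases and both below in 4, and at no gained intron were both at least 2-fold higher. Across these 31 pairs Spearman's rho between the sides was 0.20, and both sides share the libraries and the gene. Across all 162 pairs, the ratio of a neighbour and that of its gained intron had a rho of -0.06. The gain rule cuts the range of both, and the pairs share the libraries.

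**Figure D3:**
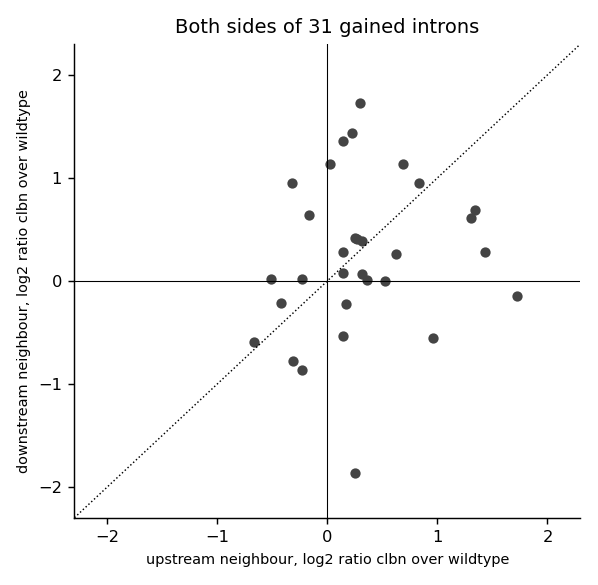
Log2 ratio of RPuKM, clbn over wildtype, of the downstream neighbour (vertical axis) against that of the upstream neighbour (horizontal axis) for 31 gained introns with at least 20 reads in both neighbours. The dotted line marks equal ratios; 15 points lie below it and 16 above, and 18 lie above 1-fold on both axes.

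In RPuKM the lean was seen in the nearest rows and was uneven beyond them. By position in the transcript, with gained introns left out, the median log2 ratio was 0.12, 0.14, -0.05 and 0.27 at positions -4, -3, -2 and -1, over 40, 41, 73 and 85 introns. On the 3′ side it was 0.26, 0.29, 0.18 and -0.03 at positions 1 to 4, over 77, 75, 53 and 44 introns. The share at least 2-fold higher was 12.3% at position -2 and 16.0% at position 2, against 18.8% and 15.6% next to the gained intron. On the 3′ side the second listed intron was therefore as high as the first. The share at least 2-fold lower was 8.22% at position -2 and 8% at position 2. Among all introns that did not meet the rule, 8.11% were higher and 7.73% lower by as much. Relative to gene values the medians were 0.12, 0.09, -0.19 and 0.14 at positions -4 to -1. At positions 1 to 4 they were 0.07, 0.19, 0.19 and -0.09, so there the first was not the highest.

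**Figure D4:**
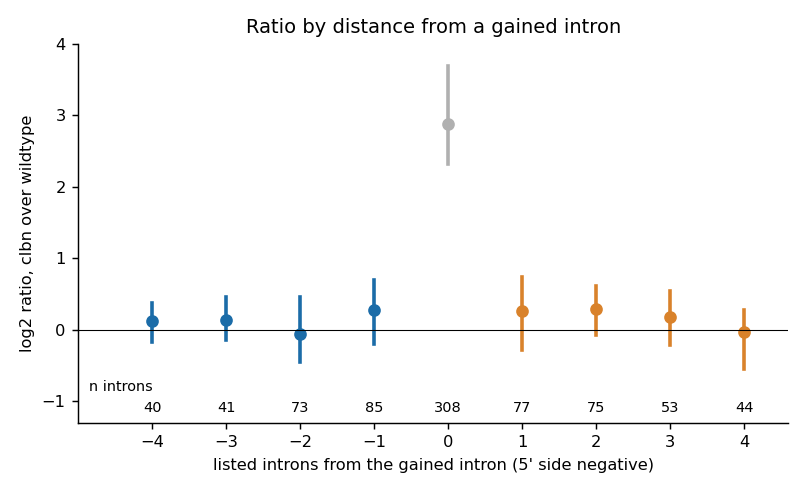
Median (points) and quartiles (bars) of the log2 ratio of RPuKM, clbn over wildtype, by position of the listed intron relative to a gained intron, with the 5′ side negative and the number of introns below each bar. The gained introns at position 0 (median 2.88) were chosen for their ratio; the positions next to them have medians of 0.27 and 0.26.

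Neighbouring rows need not be neighbouring introns, because introns without reads in both libraries are not listed. The stretch between a neighbour and its gained intron had a median of 134.5 bp with quartiles of 94 and 282 bp, about the size of an exon. It was at most 500 bp in 352 of 426 pairs (82.6%). Among tested neighbours within 500 bp, 27 of 141 were at least 2-fold higher (19.1%) and 6 lower by as much (4.26%), with a median log2 ratio of 0.27. Of the 20 that were farther away, 1 was higher (5%) and 2 were lower (10%), with a median of 0.14. The shares over all introns that did not meet the rule were 8.11% and 7.73%. The farther group is small, and its difference from the nearer one was not tested.

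By length, strand and overlap the neighbours were as follows. The tested neighbours had a median length of 2226 bp and all introns that did not meet the rule 2151 bp. Among neighbours of at most 150 bp, 5 of 31 were at least 2-fold higher and 4 lower by as much (16.1% and 12.9%, against 8.22% and 10.2% of all introns of that length that did not meet the rule). From 150 to 1000 bp these counts were 4 and 1 of 29 (13.8% and 3.45%, against 7.77% and 8.46%). From 1000 to 5000 bp they were 11 and 2 of 57 (19.3% and 3.51%, against 8.73% and 8.35%). From 5000 to 20000 bp they were 7 and 1 of 33 (21.2% and 3.03%, against 7.70% and 5.56%), and in longer introns 1 and 0 of 11 (9.09% and 0%, against 5.63% and 1.41%). The share of higher neighbours was above that of all introns in each length class, and that of lower ones below it in all but the shortest; none of these differences was tested. Minus strand genes held 50.3% of gained introns and 56.9% of neighbours, against 62.7% of all introns under a single ID. The share at least 2-fold higher was 17.0% of 53 plus strand and 17.6% of 108 minus strand neighbours. Introns of another listed gene overlapped 2 neighbours on the same strand (0.47%) and 1 on the opposite strand (0.24%). Among all introns under a single ID these shares were 1.60% and 0.89%.

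Single neighbours were tested with Fisher's exact test of intron reads against all other reads of the library, with Benjamini-Hochberg adjustment over 20317 introns. It compares these libraries, not the genotypes, and intervals given with a ratio are exact 95% intervals for counting error only. At an adjusted p under 0.05, 16 of 161 neighbours were higher (9.94%, background 4.42%) and 2 were lower (1.24%, background 3.8%). Of the 16, 13 were at least 2-fold higher. Some of the 16, such as araf with 2 wildtype reads and nap1l4a with 7, reached the minimum only through clbn reads. The background has the same minimum on reads. Both lower neighbours, in kifap3a and hsbp1a, were at least 2-fold lower. Unadjusted p-values under 0.05 were found for 38 higher (23.6%, background 11.8%) and 6 lower neighbours (3.73%, background 9.26%).

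The highest ratio belonged to araf, which codes for a RAF kinase of the MAP kinase cascade. Its last listed intron (Zv9 chromosome 5, 28506142 to 28506415) had 18 reads in clbn and 2 in wildtype, a 9.91-fold ratio (2.37 to 88.0, adjusted p = 0.0032 by Fisher's exact test). The gained intron before it had 37 and 3 reads in the same order. The neighbour did not count as gained because it had under 20 mutant reads, so the last 2 listed introns of araf were both more than 4-fold higher. With exactly 20 reads over both libraries, the neighbour reached the minimum through its clbn reads. The nucleosome assembly gene nap1l4a followed, with 25 reads in clbn and 7 in wildtype in an intron of 92 bp downstream of the gained one (3.93-fold, 1.65 to 10.8, adjusted p = 0.010, Fisher's exact test).

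The lysine methyltransferase gene smyd2a and the exportin gene xpo4 had neighbours with more reads than the gained intron itself. In smyd2a the upstream neighbour (chromosome 17, 32952931 to 32954994) had 87 reads in clbn and 25 in wildtype, a 3.83-fold ratio (2.43 to 6.24, adjusted p = 8.2e-09, Fisher's exact test). The gained intron of smyd2a had 40 reads in clbn and 10 in wildtype, a 4.40-fold ratio. Per length the smyd2a neighbour, the longer of the pair, was the lower, with 2.52 RPuKM in clbn and 0.657 in wildtype, against 5.72 and 1.30 in the gained intron. In xpo4 the first listed intron (chromosome 9, 22353367 to 22361946) had 178 reads in clbn and 65 in wildtype, a 3.01-fold ratio (2.26 to 4.07, adjusted p = 7.2e-14, Fisher's exact test). The gained second intron of xpo4 had 44 and 11 reads in the same order, again 4.40-fold. The xpo4 neighbour was also the higher per length, with 0.932 RPuKM in clbn and 0.309 in wildtype, against 0.222 and 0.0505 in the gained intron. In both genes the intervals of neighbour and gained intron overlap, and only the 4-fold threshold separates them.

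Further high neighbours were in wdfy1, trit1 and tomm20a. In wdfy1, which codes for a protein of endosomes, the upstream neighbour had 78 reads in clbn and 23 in wildtype (3.73-fold, 2.32 to 6.23), next to an intron with 44 and 2 reads in the same order. In the tRNA modification gene trit1 the first listed intron had 39 reads in clbn and 13 in wildtype (3.30-fold, 1.73 to 6.74), next to an intron with 23 and 1. In tomm20a, an import receptor gene of mitochondria, the upstream neighbour had 20 reads in clbn and 7 in wildtype (3.15-fold, 1.28 to 8.80), next to a gained intron with 22 and 6 (4.04-fold). The gained introns of wdfy1 and trit1 had ratios of 24.2 and 25.3, far from those of their neighbours, while that of tomm20a was close to its neighbour's. The first 2 of these genes passed the adjusted test (9.6e-08 and 0.0019 by Fisher's exact test) and tomm20a did not (adjusted p = 0.061).

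The lowest ratios were in kifap3a, a kinesin subunit gene (4 reads in clbn and 22 in wildtype, 0.200-fold, 0.0501 to 0.589, adjusted p = 0.018 by Fisher's exact test), and babam1, a gene of the BRCA1-A complex (4 and 19 reads, 0.232-fold, 0.0573 to 0.697). The sms intron between a pair of gained introns had 4 reads in clbn and 16 in wildtype (0.275-fold, 0.0670 to 0.853). It is 82 bp long, and the gained introns on its sides had 85 and 124 reads in clbn against 11 and 21 in wildtype. Further low neighbours were in atp1a1a.2, a sodium pump gene (6 reads in clbn and 17 in wildtype), and osbpl9, a lipid transfer gene (9 and 25 reads). The deepest low neighbour was the last listed intron of hsbp1a, whose protein binds heat shock factor 1. It had 106 reads in clbn and 297 in wildtype, a 0.393-fold ratio (0.312 to 0.492, adjusted p = 3.8e-16, Fisher's exact test). The gene value of hsbp1a was itself 0.567-fold, and relative to it the intron was at 0.693-fold. Of these genes kifap3a, babam1, sms and hsbp1a held 2 gained introns each.

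Neighbours were also grouped by the number of gained introns in their gene. In genes with exactly 1 gained intron, 24 of 141 tested neighbours were at least 2-fold higher (17.0%) and 4 lower by as much (2.84%), with a median log2 ratio of 0.29. In genes with more, 4 of 20 were higher and 4 lower (20% each), with a median of -0.21. Among all introns that did not meet the rule these shares were 8.11% and 7.73%. The group of 20 is small, and the difference between the groups was not tested.

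The gained introns with most mutant reads among those with a tested neighbour on each side are described next. Such neighbours are by rule under the gain threshold, so their lower ratios follow from the choice. In smap1, a gene for an Arf GTPase-activating protein of vesicle transport, the gained second listed intron (chromosome 13, 28420581 to 28432753) had 265 reads in clbn and 23 in wildtype. The upstream neighbour had 16 reads in clbn and 22 in wildtype (0.801-fold, 0.393 to 1.60), and the downstream neighbour 28 and 16 (1.93-fold, 1.01 to 3.81). In RPuKM the neighbours on its sides thus pointed in opposite directions, and neither passed the adjusted test. The gene value of smap1 was 0.560-fold, and relative to it these neighbours were at 1.43 and 3.44-fold.

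In the ubiquitin ligase scaffold gene cul1b, the gained second listed intron had 245 reads in clbn and 43 in wildtype. Its first intron had 23 reads in clbn and 10 in wildtype (2.53-fold, 1.16 to 5.96), and the third 19 and 13 (1.61-fold, 0.754 to 3.54). In ip6k2a, an inositol phosphate kinase gene, the gained intron had 195 reads in clbn and 31 in wildtype, while the neighbours had 52 against 46 and 39 against 41. These neighbours had ratios of 1.24 (0.821 to 1.89) and 1.05 (0.658 to 1.66). The first listed intron of ip6k2a, which does not touch the gained one, had 323 reads in clbn and 118 in wildtype, so the second highest ratio of that gene was not at a neighbour.

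In kcmf1, a ubiquitin ligase gene, the gained intron had 171 reads in clbn and 8 in wildtype, a 23.5-fold ratio. The upstream neighbour had 15 reads in each library (1.10-fold, 0.501 to 2.42) and the downstream neighbour 21 in clbn and 9 in wildtype (2.57-fold, 1.13 to 6.37). In the JNK kinase gene mapk10 the gained seventh listed intron had 144 reads in clbn and 33 in wildtype. The upstream neighbour had 12 and 13 reads in the same order and the downstream one 30 and 15 (2.20-fold, 1.15 to 4.40). These genes had a downstream neighbour above the upstream one. A gene without a symbol, listed under the Refseq ID NM_178223, had the same order, with 48 reads in clbn and 16 in wildtype downstream (3.30-fold, 1.84 to 6.23) and 38 against 34 upstream.

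**Figure D5:**
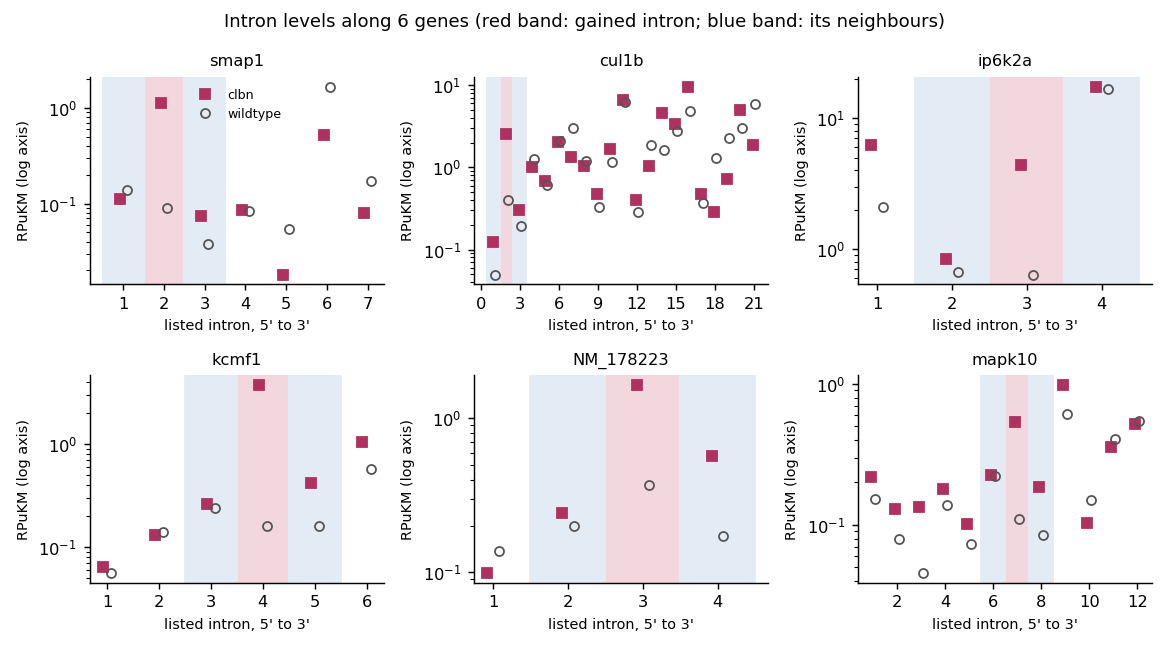
RPuKM (vertical log axis) of every listed intron in 5′ to 3′ order (horizontal axis) in the clbn library (squares) and the wildtype library (circles), for the 6 genes of the gained introns with most clbn reads among those with a tested neighbour on each side. Red bands mark gained introns and blue bands their neighbours; within the red bands the squares stand 4.49 to 23.5-fold above the circles, and within the blue bands 0.801 to 3.30-fold.

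The ribosomal protein gene rpl38 had 140 reads in clbn and 34 in wildtype in its gained intron, beside 34 against 31 upstream (1.21-fold, 0.720 to 2.03) and 101 against 84 downstream (1.32-fold, 0.981 to 1.79). The heat shock factor binding gene hsbp1b, a relative of hsbp1a, had 139 reads in clbn and 38 in wildtype in the gained intron. Its neighbours had 22 against 30 (0.807-fold, 0.444 to 1.45) and 27 against 51 (0.583-fold, 0.351 to 0.947). Both hsbp1 genes thus had a last listed intron with fewer reads in clbn, and in hsbp1b it did not pass the adjusted test (p = 0.14, Fisher's exact test). The gene value of hsbp1b was 0.828-fold, and relative to it the neighbours were at 0.974-fold upstream and 0.703-fold downstream.

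The neighbours in tspan31 (a tetraspanin gene), gca (a calcium-binding protein gene) and dync1li1 (a dynein subunit gene) ranged from 1.001 to 1.93-fold. Each of these 6 introns had an interval that included 1. Gains beside them were 8.05-fold, 4.93-fold and 6.19-fold.

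Genes believed to carry an intron of the U12 type were taken from a list of 106 symbols assembled from background knowledge, with earlier results of these data known, 73 of which were in the table. They held 33 gained introns in 28 genes and 44 neighbours, 13 of them tested. Of the 13, 4 were at least 2-fold higher and 1 lower by as much, with a median log2 ratio of 0.50. Of 148 tested neighbours in other genes, 24 were at least 2-fold higher and 7 lower by as much, with a median of 0.26. The 135 tested introns of list genes that were neither gained nor neighbours had 20 higher and 14 lower, with a median of 0.15. Over all tested introns that did not meet the gain rule, 8.11% were at least 2-fold higher and 7.73% lower by as much. With 13 members the list cannot be set apart from the rest.

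The 4 higher list members were in araf, xpo4, ssu72 and prmt1. In ssu72, a phosphatase gene of RNA polymerase II, the first listed intron (chromosome 22, 380479 to 381252) had 44 reads in clbn and 21 in wildtype (2.31-fold, 1.34 to 4.08, adjusted p = 0.024, Fisher's exact test). The gained intron behind it had 924 and 74 reads in the same order, the most mutant reads of any gained intron. In the arginine methyltransferase gene prmt1 both sides were above 1-fold, with 92 reads in clbn against 63 in wildtype upstream (1.61-fold, 1.15 to 2.25) and 32 against 16 downstream (2.20-fold, 1.17 to 4.30). The gene value of prmt1 was 1.46-fold, and relative to it these introns were at 1.10 and 1.51-fold.

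Other list members had intervals that included 1-fold. In insig1, a regulator of sterol synthesis, the gained intron had 342 reads in clbn and 7 in wildtype, and the upstream neighbour 18 and 14 (1.42-fold, 0.665 to 3.07). In the derlin gene derl1, which serves protein export from the endoplasmic reticulum, the neighbour had 24 reads in clbn and 21 in wildtype (1.26-fold, 0.671 to 2.38). In derl2 the neighbour had 9 and 11 reads in the same order, and in derl3 21 and 25. The neighbour in the sodium channel gene scn8aa had 13 reads in each library, that in the sodium/proton exchanger gene slc9a8 22 in clbn and 15 in wildtype, and that in golga7 9 and 12.

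Outside the U12 list, the signal peptidase subunit gene spcs3 had 39 reads in clbn and 14 in wildtype in its second and last listed intron (3.07-fold, 1.63 to 6.11, adjusted p = 0.0036, Fisher's exact test), behind a gained intron with 73 and 2. The kinase gene pdpk1b had 26 reads in clbn and 11 in wildtype upstream of its gained introns (2.60-fold, 1.24 to 5.83, adjusted p = 0.070, Fisher's exact test). The chaperonin gene tcp1 had 41 and 30 reads in the same order downstream of an intron with 81 and 1 (1.50-fold, 0.917 to 2.50). In the decapping factor gene edc4, with 4 gained introns and a gene value 1.94-fold higher, the 2 tested neighbours had 24 reads in clbn against 11 in wildtype (2.40-fold, 1.13 to 5.43) and 7 against 15 (0.514-fold, 0.177 to 1.34).

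Close to the threshold, the gained introns just above 4-fold were in hsbp1b (4.03-fold, 139 reads in clbn and 38 in wildtype) and, at a shared ratio of 4.04-fold, in several genes such as tomm20a (22 and 6 reads in the same order) and ergic1 (33 and 9), which has no other listed intron. The neighbours just below it with at least 20 mutant reads were those of nap1l4a, smyd2a and wdfy1 given above, at 3.93, 3.83 and 3.73-fold.

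Neighbours picked by the mirror image of the rule leaned to the lower side in RPuKM. Introns with at least 20 wildtype reads and a level at least 4-fold lower in clbn numbered 129, with 200 neighbours, 101 of them tested. Of these 101, 2 were at least 2-fold higher (1.98%) and 33 lower by as much (32.7%), with a median log2 ratio of -0.70. Among all introns that did not meet the gain rule these shares were 8.11% and 7.73%. This background still holds introns at least 4-fold lower, which were left out of these neighbours. Other tested introns of genes with such a loss numbered 425, with 5.65% higher, 16.7% lower and a median of -0.15. The genes of the 101 neighbours had a median log2 gene ratio of -0.32. Relative to gene values the median of these neighbours was 0.0034. On that scale 4 were at least 2-fold higher (3.96%, background 7.24%) and 4 lower (3.96%, background 7.18%). The genes of tested neighbours of gained introns had a median log2 gene ratio of 0.06, and relative to gene values those neighbours had a median of 0.12. The difference between these sets was not tested.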

How the data were processed

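One library of clbn and 1 of wildtype larvae were used, grouped by the genotype labels. Whole, unnormalized read counts for each intron were deposited by the authors, beside RPuKM values, an RPKM over unique length, per the file headers. A gene value per Refseq ID, with no unit named in the headers, was used to express retention. Introns of this table lie on the build Zv9, per the submitters' processing notes. For the aligner, the counting tool and the use of strand, the sources used here give no name. Library totals were recovered from counts, lengths and RPuKM. The 1121 introns under several Refseq IDs were left out. Starts fit a count from 0, so 1 was added. Gene symbols were read from Refseq names of assembly GRCz12tu, which matched 10241 of 10715 gene IDs (95.6%).

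Ratios carry no pseudocount. Exact intervals are Clopper-Pearson, and amplified reads are not independent molecules, so they cover counting error only. Fisher's exact test (two-sided, scipy 1.17.1) and the neighbour rule were tested on simulated data. Fewer than 20 reads over both libraries gave no test. The members and lists were chosen with earlier results of these data known. Named were the neighbours at the 12 gained introns with most mutant reads and 20 reads on each side, the 6 highest and 6 lowest neighbours with a symbol, those in listed genes and the 3 introns on each side of the threshold. Other introns of ip6k2a were named after their values were seen. One neighbour covered by this rule is not reported here.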

Additional observations from a re-analysis of the deposited data

How the results depend on the processing

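No paired analysis was possible because each genotype has 1 library. In 14 of 14 alternatives the share of neighbours at least 2-fold higher was above that of all introns that did not meet the rule. The median log2 ratio was above 0 in each (0.1158 to 0.5892). The alternative that keeps neighbours meeting the rule had to lean higher by construction, and it gave the top of that range. In most alternatives the median of all introns that did not meet the rule was itself above 0, at 0.1385 with no minimum. The share of neighbours at least 2-fold lower was below that of these introns in 13 of 14, the exception being gains of at least 8-fold (8.62% against 7.73%). The counts follow the number of introns used. With a minimum of 5 reads, 104 of 379 neighbours were at least 2-fold higher and 46 lower (27.4% and 12.1%, background 17.6% and 14.9%). With 50 reads these were 10 and 1 of 72 (13.9% and 1.39%, background 3.205% and 3.6%). With no minimum they were 114 and 55 of 425 (26.8% and 12.9%, background 19.7% and 14.9%). Beside gains of at least 8-fold they were 11 and 5 of 58 (19.0% and 8.62%, background 8.11% and 7.73%). At the same background, gains with at least 50 mutant reads gave 12 and 3 of 61 (19.7% and 4.92%). The plus strand gave 9 and 3 of 53 (17.0% and 5.66%), also at that background. Lower neighbours alone moved to 4 of 161 with pseudocount 5 (2.48%, background 3.32%). They were 5 of 113 beside gains with at least 5 wildtype reads (4.425%, background 7.73%). At that background they were 4 of 141 in genes with 1 gained intron (2.84%) and 5 of 108 on the minus strand (4.63%). Relative to the gene value the median was 0.1158. It then lay 0.0999 above that of other introns of the same genes, the smallest such difference of all alternatives. Keeping neighbours that meet the rule gave 82 of 215 at least 2-fold higher (38.1%, background 8.04%). The median was then 0.5892 and the difference from other introns of the same genes 0.4507, all by construction. Beside gains of at least 8-fold (58 neighbours) that difference was 0.2672 and the median difference upstream minus downstream 0.4822, over all alternatives -0.2256 to 0.4822; the cause was not tested. Depth limits single neighbours: 2 of the 28 at least 2-fold higher had an interval that included 1 before adjustment, and 15 of the 28 did not pass the adjusted test.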

Other observations

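Neighbours with many reads passed the test at ratios under 2-fold. The upstream neighbour in eml1, a microtubule-binding protein gene, had 335 reads in clbn and 239 in wildtype (1.54-fold, 1.30 to 1.83, adjusted p = 1.2e-05, Fisher's exact test). In the palmitoyltransferase gene zdhhc8b an intron of 97648 bp had 211 and 152 reads in the same order (1.53-fold, 1.23 to 1.89, adjusted p = 0.0016, Fisher's exact test). Both introns were named after their values were seen.

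Further neighbours at least 2-fold higher that passed the test, also named after their values were seen, lay in hnrnpl2, a gene of an RNA-binding protein (59 reads in clbn and 24 in wildtype, downstream), in the ubiquitin ligase gene rnf175 (53 and 26, upstream) and in the selenoprotein gene selenom (34 and 15, upstream). In hnrnpl2 the upstream neighbour had 36 reads in clbn and 34 in wildtype, so that its sides differed, while the gained intron had 33 and 2.

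By wildtype depth, 6 of 60 neighbours with 20 to under 50 wildtype reads were at least 2-fold higher (10.0%, against 2.13% of all introns that did not meet the rule) and 2 at least 2-fold lower (3.33% against 11.1%). With 50 wildtype reads or more, 1 of 26 was higher (3.85% against 0.459%) and 1 lower (3.85% against 4.75%). Of 75 with under 20 wildtype reads, 21 were higher (28.0% against 16.4%) and 5 lower (6.67% against 6.67%). That class reaches 20 reads over both libraries only with the help of its clbn reads, which weights it to high ratios among neighbours and all introns alike. Among introns listed under several Refseq IDs, 5 of 1121 met the gain rule once reads were divided by the number of IDs, and they entered no comparison.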
